A study of Homo sapiens with 8 samples.

Results

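The microRNA miR-21 was followed through the 2 mature products of its hairpin, miR-21-5p and miR-21-3p, in HCT116 cells exposed to a gut bacterium. The members were the rows whose names are hsa-miR-21-5p and hsa-miR-21-3p, 2 of the 2575 miRNA names counted in every library. HCT116 is a human colorectal cancer cell line, used here at passages 16 to 19. Small RNA was sequenced from whole-cell RNA of 8 libraries in 2 groups. The 4 ETBF libraries came from cells co-cultured for 6 h with enterotoxigenic Bacteroides fragilis (ETBF), a colonic bacterium whose toxin is a metalloprotease, with 500 bacteria per cell. The 4 control libraries came from cells that are titled untreated and, per the labels' protocols, received the bacterial medium without ETBF. All 8 libraries come from this 1 line, and toxin and bacterium cannot be told apart in this design. The labels do not say that replicates were separate cultures, so p-values measure the spread between these libraries, which may be technical.

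A miRNA gene is transcribed into a primary transcript, from which Drosha and then Dicer cut a short duplex of a 5p and a 3p strand. One strand, the guide, is loaded into an Argonaute protein and pairs with target mRNAs through its seed, bases 2 to 8, while the other strand is usually degraded soon after processing. In miR-21 the 5p strand is the guide. It is among the miRNAs most often raised in colorectal tumours, it represses the tumour suppressor PDCD4, and its gene is transcribed in response to AP-1 and STAT3. The 3p strand is the minor product.

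The sequences below show the guide, the hairpin that carries both arms and the one other human miRNA in the table with the guide's seed. They are from RefSeq on GRCh38.p14, which held a mature entry for 1 of the 2 members and for 417 of the 480 miRNAs tested (86.9%). Capitals mark the seed in the mature miRNAs and the 5p arm in the hairpin.
hsa-miR-21-5p: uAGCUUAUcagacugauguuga
MIR21 hairpin: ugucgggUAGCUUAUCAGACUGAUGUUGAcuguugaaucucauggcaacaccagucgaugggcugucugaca
hsa-miR-590-5p: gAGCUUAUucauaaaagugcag

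MIR21 lies on the plus strand of chromosome 17 at chr17:59841266-59841337 (GRCh38). It is inside the annotated span of VMP1, a protein-coding gene of autophagosome formation, 174 bases beyond the end of the last exon of the coding transcript VMP1-201. In GENCODE release 29 the hairpin is covered by an exon of 1 VMP1 transcript, the retained-intron form VMP1-216. The hairpin is 72 bases long and the 5p arm takes bases 8 to 29, with a mature GC content of 36.4% (median over the matched tested miRNAs 47.6%). In the minimum free energy fold, 19 of the 22 bases of the 5p arm were paired, all 7 seed bases among them, with partners between bases 46 and 65 of the hairpin.

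The ETBF libraries held 2591655 to 4706156 counts and the control libraries 5243400 to 6522542, so ETBF libraries were shallower (two-sided exact permutation p = 0.0286, the smallest 70 arrangements allow, adjusted p = 0.0381 over 4 single values; replicate numbers are those of the titles). Of 480 miRNAs with enough counts to test, 165 passed the threshold of adjusted p under 0.05 in edgeR's quasi-likelihood test, 95 higher and 70 lower with ETBF (71 and 89 with upper-quartile scaling, 80 and 89 after removal of the GC trend). The summed level of 8 epithelial miRNAs was 23731 to 26688 CPM with ETBF and 27886 to 29745 CPM in controls. Of the 7 tested, 4 were lower (miR-200c-3p, miR-200a-3p, miR-429 and miR-192-5p), 0 were higher and 3 did not pass. Over all miRNAs tested 14.6% passed as lower. The 8 blood and endothelial markers, mostly miR-126-3p, summed to 1072 to 1303 CPM with ETBF and 1478 to 1665 CPM in controls. Of the 5 blood and endothelial markers tested, miR-126-3p was lower (log2 fold change -0.43), the red-cell marker miR-451a was higher (1.94, on 414 counts with ETBF and 168 in controls) and 3 did not pass. Stromal and muscle markers summed to 385 to 429 CPM with ETBF and 413 to 428 CPM in controls. These were mainly miR-145-5p, miR-199a-3p and miR-143-3p, with miR-206 at 0, and all 4 tested did not pass. Neuronal and liver markers, nearly all miR-9-5p and miR-9-3p, summed to 8287 to 10369 CPM with ETBF and 8473 to 10396 CPM in controls, with miR-124-3p at 0. Of 10 entries that resemble ribosomal or other RNA, the 5 tested were all higher with ETBF, and the 10 summed to 195 to 611 CPM with ETBF and 46.7 to 174 CPM in controls. The part of depth and of these entries in the results on miR-21 was not tested. The fit on libraries thinned to equal depth, described with miR-21-3p, evens out counting noise only. Levels are given as CPM, counts scaled to the total of the tested miRNAs after TMM normalisation.

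The 2 arms did not move together. The minor arm miR-21-3p was 2.64-fold higher with ETBF. The guide miR-21-5p did not pass, and the 95% interval of its fold change ran from 11.6% below to 9.67% above the control level. One of the 2 members thus passed the test, in a fit in which 34.4% of all miRNAs tested passed and 19.8% passed as higher. In bulk RNA a change in the share of cells that carry a miRNA and a change in its amount per cell cannot be told apart.

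MiR-21-5p was counted 1765454, 1334620, 1337593 and 935568 times in ETBF replicates 1 to 4, and 1864311, 2107471, 1743761 and 2245094 times in control replicates 1 to 4. These counts were 37.5%, 33.1%, 34.5% and 36.1% of the ETBF libraries and 35.3%, 34.9%, 33.3% and 34.4% of the control libraries. It was the most abundant miRNA in all 8 libraries. After scaling it stood at 379392, 313607, 343545 and 350159 CPM with ETBF, against 370718, 371141, 331486 and 334832 CPM in controls. All 4 control libraries lay within the range of the ETBF libraries, where replicate 1 was the highest and replicate 2 the lowest. The mean level of miR-21-5p was 346676 ± 26993 CPM in ETBF libraries against 352044 ± 21851 CPM in control libraries (SD, n = 4 each). The log2 fold change of miR-21-5p was -0.02 (SE 0.07, 95% interval -0.18 to 0.13) and did not pass (edgeR, adjusted p = 0.842). Its share of the library averaged 35.3% ± 1.93 and 34.5% ± 0.899 (two-sided exact permutation p = 0.486, adjusted p = 0.486). The sign of the small log2 fold change turned with total-count scaling (0.034) and without control replicate 1 (0.0047). The difference in share was positive in all 9 alternatives and passed in none of them.

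The next most abundant miRNA was miR-7-5p, with means of 175591 ± 13223 CPM in ETBF libraries and 162128 ± 14087 CPM in control libraries (SD, n = 4 each). MiR-21-5p had 1.71 to 2.28 counts for each count of miR-7-5p in the ETBF libraries and 2.04 to 2.28 in the control libraries, and the values of the 2 miRNAs did not overlap in either group. Cloning and ligation favour some small RNA sequences over others, so such ratios between miRNAs describe library counts. Of all miRNAs tested, 34.4% passed and 14.6% passed as lower. Of the 10 most abundant miRNAs, 4 passed, all lower with ETBF: the tumour-suppressive let-7a-5p (log2 fold change -0.21, SE 0.06), miR-26a-5p (-0.49, SE 0.06), miR-148a-3p (-0.45, SE 0.09) and miR-30d-5p (-0.62, SE 0.07). MiR-21-5p was among the 6 that did not pass, and the log2 fold changes of the other 5 ran from -0.11 (SE 0.06) for let-7f-5p to 0.12 (SE 0.08) for miR-7-5p, with miR-100-5p, let-7g-5p and let-7i-5p between them.

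MiR-21-3p was counted 3773, 3555, 3118 and 2424 times in ETBF replicates 1 to 4, and 1643, 1970, 1565 and 2017 times in control replicates 1 to 4. Raw counts were thus higher in each ETBF library although these libraries were smaller. After scaling it stood at 811, 835, 801 and 907 CPM with ETBF, against 327, 347, 298 and 301 CPM in controls. The groups did not overlap, the lowest ETBF library (801 CPM) lying far above the highest control library (347 CPM). No overlap between groups was seen for 33.8% of all miRNAs tested. The mean level of miR-21-3p was 839 ± 48.0 CPM in ETBF libraries against 318 ± 23.3 CPM in control libraries (SD, n = 4 each). The log2 fold change of miR-21-3p was 1.40 (SE 0.08, 95% interval 1.23 to 1.56; edgeR, adjusted p = 1.16e-09), a fold of 2.64 with an interval of 2.35 to 2.95. Its p was the third smallest of the 480, and among the 145 miRNAs with a mean of at least 100 CPM its log2 fold change ranked 3.

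With every library thinned to the smallest total, the log2 fold change of miR-21-3p was 1.43 (edgeR, adjusted p = 4.00e-10). Thinning evens out counting noise but keeps each miRNA's expected share of its library, so it cannot test what made the ETBF libraries smaller. Without ETBF replicate 4, the shallowest library and the one with the highest level, the log2 fold change of miR-21-3p was 1.36 (edgeR, adjusted p = 3.45e-09). By mean level miR-21-3p had rank 66 with ETBF and rank 94 in controls. With ETBF it lay between miR-744-5p (844 ± 65.1 CPM) and miR-30b-5p (825 ± 81.9 CPM), and in controls between miR-484 (329 ± 34.5 CPM) and miR-30a-5p (316 ± 26.4 CPM). All 4 neighbours overlapped it in their group, so its exact place in the order is not resolved.

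**Figure D1:**
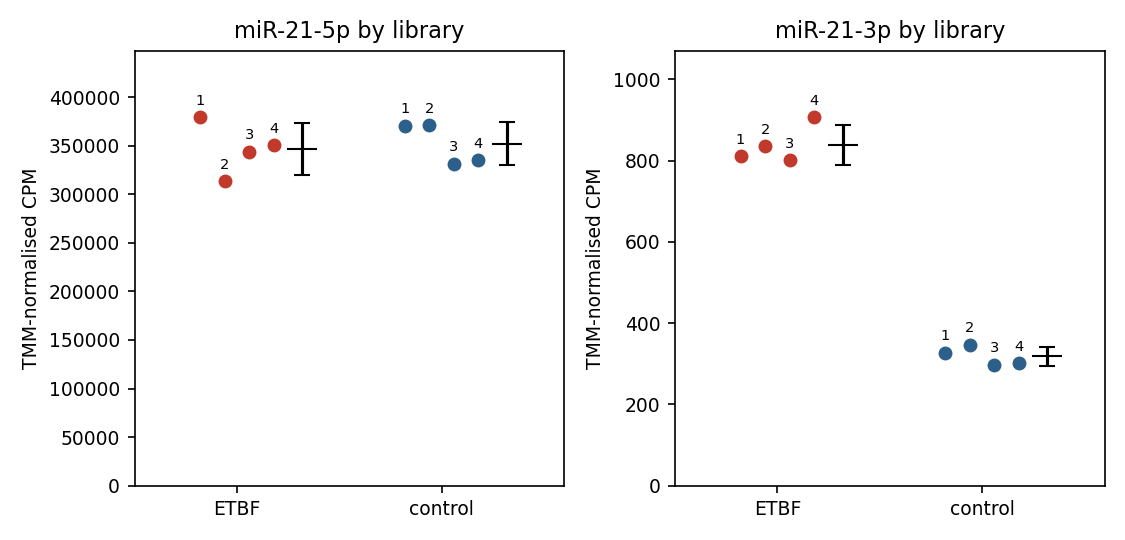
Level of miR-21-5p (left) and miR-21-3p (right) in TMM-normalised CPM in each library, with the replicate number above each point and the mean ± SD of the 4 libraries beside them. The miR-21-5p points overlap between groups, while the 4 ETBF points of miR-21-3p lie between 801 and 907 CPM and the 4 control points between 298 and 347 CPM.

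Because both arms come from 1 hairpin and are read in the same library, their ratio needs no scaling between libraries. MiR-21-3p made up 0.213%, 0.266%, 0.233% and 0.258% of the counts of both arms in ETBF replicates 1 to 4. In control replicates 1 to 4 the shares were 0.0881%, 0.0934%, 0.0897% and 0.0898%. The lowest ETBF share, in replicate 1, had a 95% exact binomial interval of 0.207% to 0.220%, and the highest control share, in replicate 2, one of 0.0893% to 0.0976%. These intervals cover counting error only. The shares of the 2 groups did not overlap, and the control libraries lay closer together than the ETBF libraries. Over all hairpins with both arms tested, the arm ratio did not overlap between groups for 33.1%. Put as counts, there was 1 count of miR-21-3p for every 468, 375, 429 and 386 counts of miR-21-5p with ETBF, against every 1135, 1070, 1114 and 1113 counts in controls.

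The share averaged 0.242% ± 0.0241 over the ETBF libraries against 0.0902% ± 0.00226 over the control libraries (SD, n = 4 each; two-sided exact permutation p = 0.0286, at the lower limit of this design, and adjusted p = 0.0381). Without control replicate 2 or 4 the adjusted p of this share was 0.0571, at differences of 0.153 and 0.152 percentage points against 0.152 with all libraries. Its unadjusted permutation p stayed at 0.0286 in both. The adjusted p rose because the permutation p of the library totals, 1 of the 4 single values, went to 0.0571. The log2 ratio of miR-21-3p to miR-21-5p was 1.42 higher with ETBF (SE 0.12, 95% interval 1.15 to 1.70; limma, adjusted p = 5.12e-05 over 118 hairpins), which is a 2.68-fold shift with an interval of 2.22 to 3.24. That test is of the difference between the arms themselves. As a share of the whole library miR-21-3p took 0.0855% ± 0.00648 with ETBF and 0.0311% ± 0.00114 in controls (two-sided exact permutation p = 0.0286, adjusted p = 0.0381).

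**Figure D2:**
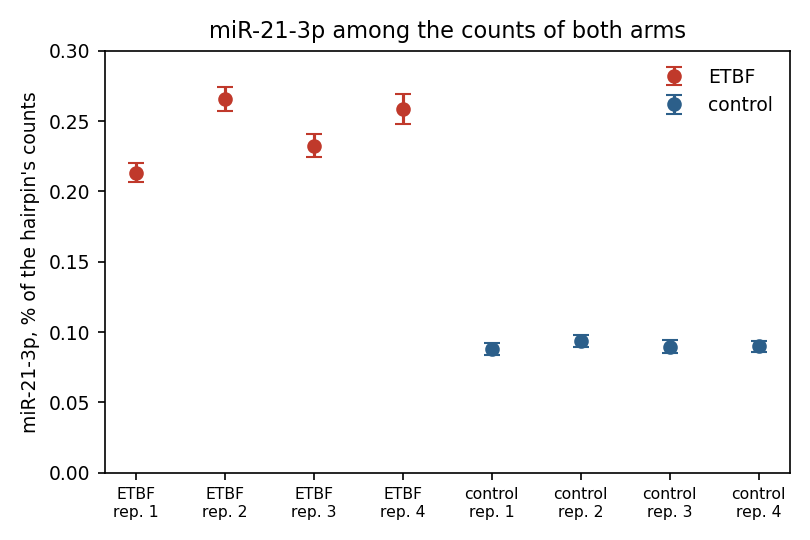
Percentage of the hairpin's counts that are miR-21-3p in each library, with 95% exact binomial intervals, for ETBF replicates 1 to 4 and control replicates 1 to 4. All 4 ETBF libraries lie above 0.2% and all 4 control libraries below 0.1%, and no interval of one group reaches the other. The arm ratio did not overlap between groups for 33.1% of all hairpins with both arms tested.

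**Figure D3:**
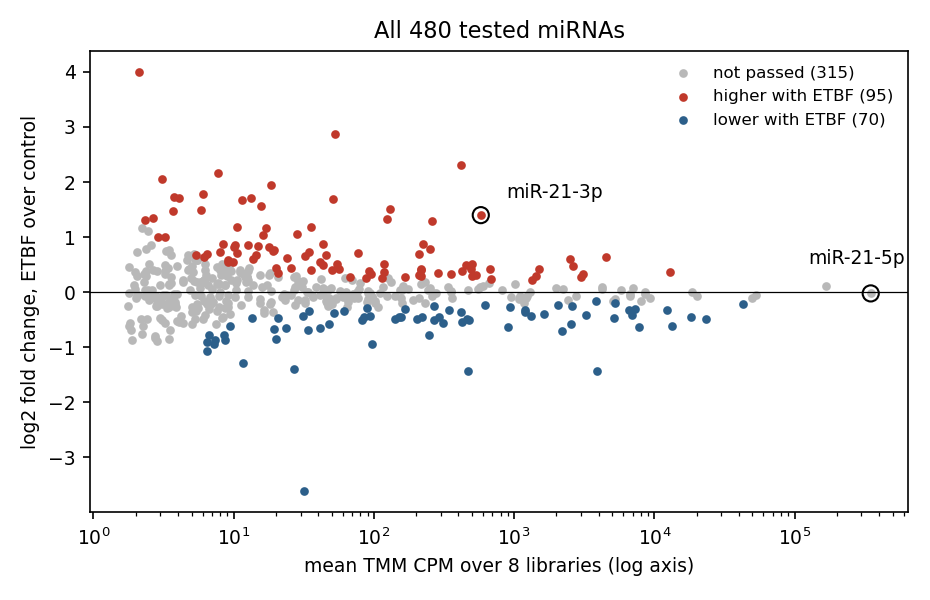
Log2 fold change (ETBF over control) against mean level (TMM CPM, log axis) for the 480 miRNAs tested, coloured by the edgeR call, with the miR-21 arms circled. MiR-21-5p sits at the right end on the zero line and miR-21-3p at 1.40, in the upper part of the abundant miRNAs.

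MiR-21 was set beside the other hairpins whose 2 arms were both tested and whose names pair exactly, 118 with miR-21. Pairing went by name alone, and a kept name such as let-7a can stand for more than 1 hairpin. Arms with a copy number in the name, such as miR-16-1-3p, miR-125b-1-3p and miR-92a-1-5p, have no exactly paired name and were left out. Their partner too can come from more than 1 hairpin. Their own log2 fold changes were 2.17, 1.28 and 1.56, against 0.30, -0.32 and -0.00 for miR-16-5p, miR-125b-5p and miR-92a-3p. These examples were chosen by no set rule and do not stand for all such arms. For example, miR-29b-2-5p (0.67, edgeR, adjusted p = 0.0758) and miR-30c-1-3p (0.51, edgeR, adjusted p = 0.110) did not pass. The minor arm of a hairpin is the one with the lower mean level over the 8 libraries. The arm ratio passed for 38 hairpins (32.2%; limma, adjusted over 118), and for 25 without ETBF replicate 4. The minor arm gained on the major arm in 31 of them (26.3%) and lost in 7 (5.93%). The shift of miR-21 had the smallest p of the 118, a place it kept in 5 of 15 alternatives and ceded as the second smallest in 10. Within the 118, 2 hairpins had a larger shift, miR-222 and miR-135b (named after their values were seen). The rank of miR-21 by size ran from 3 to 5 over the alternatives, apart from rank 13 when 260 hairpins with counts in at least 4 libraries were admitted. The median shift towards the minor arm over all 118 was 0.20 on the log2 scale, against 1.42 for miR-21. For the 26 other hairpins whose minor share in controls was under 1%, a group chosen after seeing the data, the median was 0.43, with 11 higher, 1 lower and 14 not passed. MiR-21 was also the hairpin with the most counts, 1669242 per library on average over both arms.

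Seen arm by arm, 33 of the 118 minor arms passed as higher and 11 as lower (median log2 fold change 0.16), while 18 major arms passed as higher and 30 as lower (median -0.01). With upper-quartile scaling, which moved the median log2 difference of all miRNAs by -0.08, the minor arms split into 23 higher and 17 lower. MiR-21 was one of 20 hairpins with a minor arm that passed as higher beside a major arm that did not pass. In 7 others the major arm was lower and in 6 it was higher too. In controls the minor share of miR-21 was the fourth lowest of the 118.

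The hairpins with the next smallest p among shifts towards the minor arm were miR-222, which targets the cell cycle inhibitor CDKN1B through its 3p arm, and miR-27a. Their minor arms, shown to compare them with miR-21 and with seeds in capitals, shared no seed with miR-21-5p or with each other.
hsa-miR-222-5p: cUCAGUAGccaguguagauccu
hsa-miR-27a-5p: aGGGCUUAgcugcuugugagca

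MiR-222-5p made up 1.06%, 1.05%, 1.20% and 1.69% of its hairpin's counts in ETBF replicates 1 to 4, against 0.276%, 0.260%, 0.281% and 0.185% in control replicates 1 to 4. The groups did not overlap, and ETBF replicate 4 was the highest and control replicate 4 the lowest. Its shift was 2.32 (SE 0.20; limma, adjusted p = 5.12e-05). Here both arms passed, the minor one upwards (log2 fold change 1.70, SE 0.17) and the major arm miR-222-3p downwards (-0.63, SE 0.07). MiR-27a-5p took 13.4% ± 0.626 of its hairpin in ETBF libraries and 5.71% ± 0.829 in control libraries (SD, n = 4 each), a shift of 1.36 (SE 0.15; limma, adjusted p = 1.26e-04). It too combined a minor arm that was higher (0.79, SE 0.09) with a major arm that was lower (-0.57, SE 0.07). MiR-21 differed from these in that its major arm did not pass, although the difference between hairpins was not tested.

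The opposite shift was rarer. The 5p arm of miR-33a, a hairpin in the cholesterol regulator gene SREBF2, was the minor one over the 8 libraries together and took 32.4% ± 4.00 with ETBF and 54.4% ± 8.05 in controls (shift -1.31, SE 0.24; limma, adjusted p = 0.00513), on a mean of 70.6 counts for both arms. The 3p arm of miR-340 took 3.00% ± 0.249 and 4.51% ± 0.202 (-0.61, SE 0.12, adjusted p = 0.00767), and the 3p arm of miR-642a took 22.4% ± 5.47 and 41.6% ± 10.6 (-1.30, SE 0.34, adjusted p = 0.0179). All 3 were free of overlap between the groups, as were 33.1% of the hairpins tested.

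**Figure D4:**
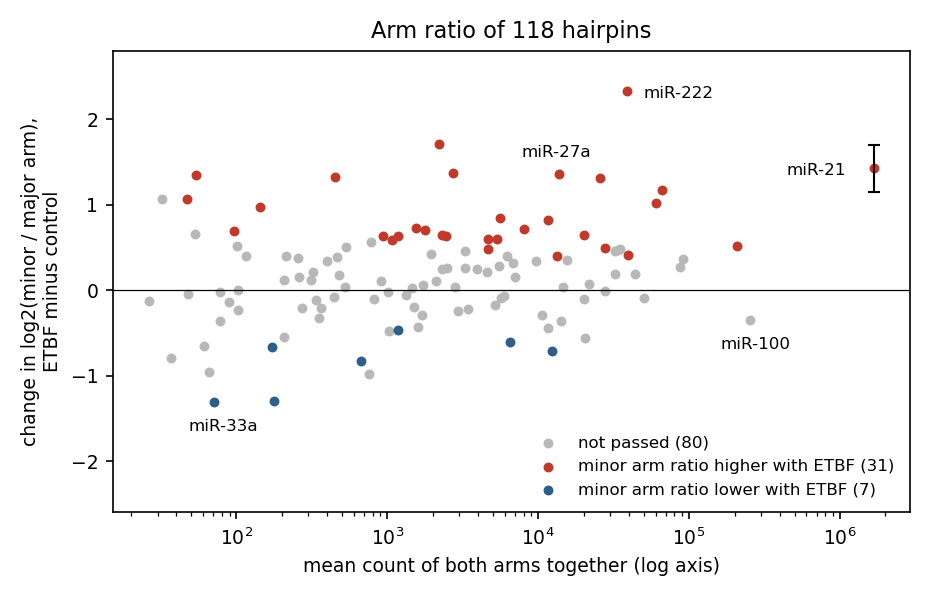
Change in the log2 ratio of minor to major arm (ETBF minus control) against the mean count of both arms together (log axis) for 118 hairpins, coloured by the limma call. MiR-21 stands at the right end at 1.42 with its 95% interval, and 31 coloured points lie above 0 against 7 below it.

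Among the 5 other hairpins with the most counts, the arm ratio passed for 2 and did not pass for 3. MiR-100-3p took 0.0280% ± 0.00829 of its hairpin with ETBF and 0.0354% ± 0.00948 in controls, and let-7i-3p took 0.0515% ± 0.0224 and 0.0404% ± 0.00607. The groups overlapped for both, and neither passed (shift -0.35, SE 0.27, 95% interval -0.96 to 0.25, adjusted p = 0.349 for miR-100, and 0.27, SE 0.28, -0.35 to 0.89, adjusted p = 0.464 for let-7i; limma). The minor arm of miR-148a did not pass either (0.36, SE 0.15, adjusted p = 0.0828). Those of let-7a (0.52, SE 0.11, adjusted p = 0.00968) and miR-30d (1.17, SE 0.15, adjusted p = 6.00e-04) gained on their major arms. The 95% interval of miR-21, from 1.15 to 1.70, lies above the intervals of miR-100, let-7a, miR-148a and let-7i and overlaps that of miR-30d (0.82 to 1.52).

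The seed of miR-21-5p is shared by miR-590-5p, so both can pair with the same target sites. MiR-590-5p was counted 11, 1, 5 and 7 times in ETBF replicates 1 to 4 and 5, 10, 7 and 4 times in control replicates 1 to 4, too few to test. Nearly all counts with this seed were therefore miR-21-5p in all 8 libraries. The other arm of that hairpin, miR-590-3p, was tested and averaged 138 ± 12.4 CPM in ETBF libraries and 96.6 ± 9.19 CPM in control libraries (log2 fold change 0.51, SE 0.10; edgeR, adjusted p = 6.18e-04).

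MiR-21 was set in a list of inflammation-responsive miRNAs, linked to NF-kB, AP-1, STAT3, CREB or Toll-like receptor signalling. A place in this list does not mean that the signal raises the miRNA. Of 18 listed, both arms of miR-21 among them, 15 could be tested, of which 3 passed as higher, 6 as lower and 6 did not pass. Over all miRNAs tested 19.8% passed as higher and 14.6% as lower. The median log2 fold change of the 15 was -0.20, against 0.01 over all 480. The higher ones were miR-21-3p, miR-222-5p and miR-29b-3p (0.31, SE 0.08), the last of which represses collagen genes. The lower ones included miR-146b-5p, a feedback inhibitor of NF-kB signalling (-0.49, SE 0.09). The CREB-responsive locus of miR-132 and miR-212 was lower too, at -0.68 for miR-132-3p, -0.44 for miR-132-5p and -0.94 for miR-212-5p, as were miR-222-3p and miR-125b-5p (-0.32, SE 0.08).

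Over the 8 libraries, the levels most like miR-21-3p on the log2 scale were those of miR-4521 (Pearson r = 0.994), miR-7974 (0.991) and miR-16-1-3p (0.990). A correlation above 0.9 was found for 44 miRNAs, since all that follow the 2 groups share this pattern. After removal of the group means the same 3 stood at 0.428, 0.573 and 0.622. The levels most like miR-21-5p were those of miR-148a-5p (0.870), miR-30e-3p (0.867) and miR-200b-3p (0.850), none of which passed the test between groups. The 2 arms of miR-21 had an r of -0.08 with each other over the 8 libraries, and 0.411 after removal of the group means. These values describe 8 libraries that share their scaling.

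**Figure D5:**
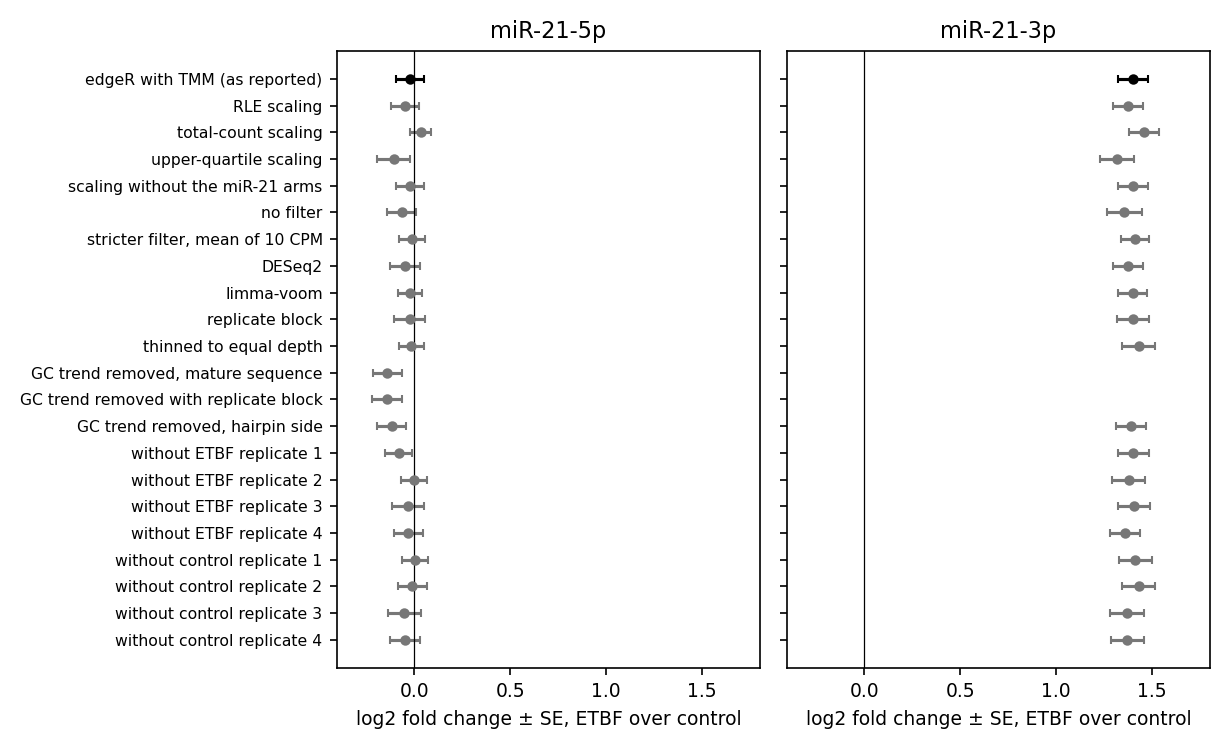
Log2 fold change (ETBF over control) ± SE of miR-21-5p (left) and miR-21-3p (right) in edgeR with TMM and under each alternative scaling, filter, tool, correction and left-out library. The miR-21-3p points lie between 1.32 and 1.46, and the miR-21-5p points between -0.14 and 0.03 on both sides of 0. Settings that use the GC content of the mature sequence are blank for miR-21-3p, which was not given a value in them.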

How the data were processed

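The authors deposited unnormalised read counts for each mature miRNA name, in a separate file for each library. Trimmomatic, FastQC and featureCounts were used, with GRCh37.p5 as the build, per the submitters' processing notes. Tool versions, the aligner and the annotation release: not given in the sources used here. Coordinates and sequences here come from GRCh38 tables matched by name.

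MiRNAs passing edgeR's default expression filter (minimum count 10) were tested in R 4.3.3 by edgeR 4.0.16 (glmQLFTest), with TMM scaling and a 2-group design. Two-sided p-values were adjusted by the Benjamini-Hochberg method over all 480 (threshold 0.05). The SE was taken as |log2 fold change|/√F. The 480 held over 99.9% of each library. A level of 3 counts corresponds to 0.46 to 1.16 CPM. Arm ratios, log2 of the 3p over the 5p count after adding 0.5, were tested with limma 3.58.1 for hairpins whose names pair exactly. Single values had exact permutation tests. Folding used ViennaRNA 2.7.2.

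Samples were grouped by title. No libraries of a group agreed within sampling noise (chi-square/df at least 21.8). The scripts were tested on simulated data. The members, lists and tests were chosen with earlier results of these data known. Named were the 2 arms, their seed relatives, the 10 most abundant miRNAs, called members of the inflammation list, the 3 hairpins with the smallest arm-ratio p in each direction, the 5 other hairpins with most counts and the 3 miRNAs most like each arm. The arms with a copy number in the name were examples chosen by no set rule.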

Additional observations from a re-analysis of the deposited data

How the results depend on the processing

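MiR-21-3p stayed higher with ETBF in all 19 alternatives in which it had a value, with log2 fold changes of 1.32 (upper-quartile scaling) to 1.46 (total-count scaling) and adjusted p up to 1.03e-06. It has no value in the 2 fits that use the GC content of the mature sequence. With the GC content of its side of the hairpin, chosen after seeing the data, it was at 1.39. The arm ratio of miR-21 passed in all 15 alternatives at 1.38 to 1.48 (adjusted p up to 0.00256). MiR-21-5p passed in none of 21 fits with edgeR, DESeq2 or limma-voom (-0.14 to 0.034, adjusted p from 0.153). Its sign turned with total-count scaling (0.034) and without control replicate 1 (0.0047); the cause was not tested.

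Leaving out 1 library in turn gave log2 fold changes of 1.36 to 1.43 for miR-21-3p, -0.081 to 0.0047 for miR-21-5p and 1.38 to 1.48 for the arm ratio. The share of miR-21-3p in its hairpin differed by 0.145 to 0.162 percentage points, its share of the library by 0.0517 to 0.0562, and that of miR-21-5p by 0.0680 to 1.55. The difference in library totals was -2267502 to -1562668 counts. Without control replicate 2 or 4 the first 2 of these shares had an adjusted p of 0.0571, and the totals 0.0762, with the same direction. The unadjusted permutation p of those 2 shares stayed at 0.0286.

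Over all miRNAs 142 to 169 passed, against 165, and in the inflammation list 2 to 3 were higher and 5 to 7 lower. Among hairpins 10 of 260 passed when those with counts in at least 4 libraries were admitted, 25 without ETBF replicate 4, and 25 to 38 over all left-out libraries, against 38. The split of calls was 57.6% higher with TMM, 44.4% with upper-quartile scaling and 47.3% after removal of the GC trend of the mature sequence. With the replicate number as a block miR-21-3p was at 1.40 (adjusted p = 1.03e-06), miR-21-5p at -0.02, and 159 miRNAs and 28 hairpins passed. Same-numbered libraries deviated together with correlations of -0.06 to 0.06, and not every library correlated best with its own number. The labels do not say whether the numbers pair the libraries, and these correlations cannot show it. Each ETBF count of miR-21-3p rests on at least 2424 reads, whereas miR-590-5p, at 1 to 11, was too shallow to test.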
